A study of Mus musculus with 14 samples.

Results

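The comparison set hepatoblasts carrying an empty vector and kept on uncoated plates against the same kind of cell on collagen-coated plates. It rests on 4 of the 14 arrays of the series, chosen by their titles, with 2 cultures in each group, and covers 12393 genes. Hepatoblasts were taken from wild-type mouse embryos at day 14 and immortalised by plating them at clonal density, and the vector belonged to a doxycycline-inducible system. Whether all cultures came from 1 clone is not stated in the labels, and the collagen was from rat tail. All cultures had a medium with serum, epidermal growth factor, insulin-like growth factor II and insulin. Uncoated culture lasted up to 5 days and is the setting that the protocol names for hepatocyte differentiation. Doxycycline was given for the IDH1 experiments, and the sources used here do not say whether the vector cultures had it. The other groups carried wild-type or mutant IDH1 or IDH2. Of these, only cells with IDH1 R132C, a mutant that makes 2-hydroxyglutarate, were also kept on uncoated plates.

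Hepatoblasts are the progenitors of the fetal liver. They divide, and they give rise both to hepatocytes, which secrete plasma proteins and clear fats, hormones and foreign compounds, and to the cells that line bile ducts. Contact with collagen and growth factors keeps such cells spread and dividing in culture, while culture without that contact is used to start their maturation.

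The cells matched their label in part. On both surfaces they held high levels of the simple epithelial keratins Krt8 and Krt18, at log2 14.22 or above for Krt8 and 14.11 or above for Krt18, and of the liver transcription factors Hnf4a and Foxa2, at 11.46 or above. Afp, the main plasma protein of the fetal liver, was at log2 10.64 and 10.63 on collagen and at 9.40 and 9.09 on uncoated plates. In contrast, the hepatoblast markers Prox1 and Gpc3 lay near background on all 4 arrays, as did Lgr5, and Dlk1 was at log2 5.32 to 5.59. Levels at or below log2 5.3 are called near background here, a ceiling a little above the lower quartile of every array. Of 15 measured hepatoblast and simple epithelial markers, 3 were near background in both groups. The summed intensity of all 15 was 67934 to 68709 on collagen and 67277 to 67697 on uncoated plates. Bright keratins such as Krt8 and Krt18 dominate this sum, so it says little about dimmer members such as Afp. The adhesion molecules Epcam and Cdh1, which join epithelial cells, rose from 9.18 and 9.57 to 11.19 and 11.21 and stood at 12.55 and 12.60 and then at 12.82 and 13.06, and the Cdh1 call is not firm. Its limma adjusted p was 0.15 without collagen culture 1, 0.0751 without collagen culture 2, 0.251 without uncoated culture 2 and 0.0577 with no intensity trend. The enzymes that the other groups carried were present in vector cells, Idh1 at 11.97 and 12.26 and then 12.19 and 12.28, and Idh2 at 10.83 and 10.80 and then 11.31 and 11.34.

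Levels are log2 of the deposited array intensity, and a change is the uncoated minus the collagen mean with its standard error from a limma fit over all 14 arrays. A gene was called where its Benjamini-Hochberg adjusted p was under 0.05. Median intensity was 145.9 to 148.0 on these 4 arrays. Precision is limited by having 2 cultures in a group. The p-values measure only spread between cultures of the same group, pooled over all 7 groups and drawn toward that of other genes. They cover no other source of variation. With only the 4 compared arrays fitted, 3181 genes were called in place of 3628. In bulk RNA, a change in the share of cells of a kind cannot be told apart from a change per cell.

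The response was broad and of similar extent in both directions. By limma, 1868 genes (15.1%) were called higher on uncoated plates and 1760 (14.2%) lower, 29.3% of all, and the median change over all genes was log2 -0.02. Many changes were small: 850 of the rises and 871 of the falls were under 1.5-fold. At least 2-fold higher were 411 genes (3.32%) and at least 2-fold lower 346 (2.79%), and with genes under the 30th percentile of level left out the order turned, at 327 and 341. At least 4-fold higher were 96 genes and lower 18, and at 16-fold the numbers were 8 and 0. Of the 411 rises 99 began near background on collagen, and of the 346 falls 31 ended there on uncoated plates. The groups did not overlap for 65.0% of all genes. For genes named by their large change this was required, so it adds no support there. Without collagen culture 1 the number called was 2293, and without uncoated culture 1 it was 2313.

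**Figure D1:**
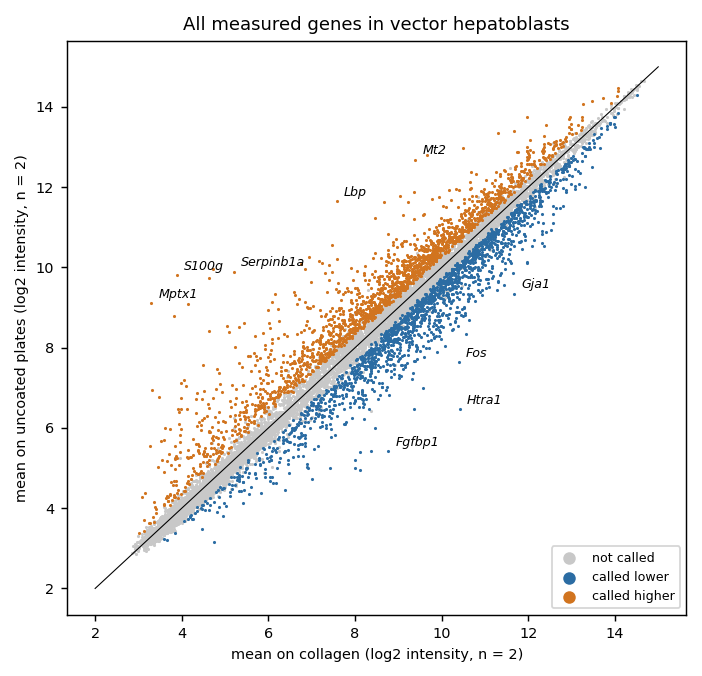
Mean level of each measured gene in vector cells on collagen (x axis, log2 intensity, n = 2) and on uncoated plates (y axis, log2 intensity, n = 2), with called genes coloured and the line of equal level drawn. Genes above the line at the left, such as S100g and Mptx1, were near background on collagen, and Htra1 and Fgfbp1 lie farthest below it.

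Only 6 genes met the rule for switching on, which asked for both collagen arrays at or under their own lower quartile, both uncoated arrays at or over their own median, and a call. They were S100g, Mptx1, C9, Sult1d1, Cyp4a12a and Spink4, and no gene met the reverse rule. S100g, a calcium-binding protein of intestine and kidney, lay at log2 4.11 and 3.64 on collagen and at 10.16 and 9.43 on uncoated plates. Mptx1, a pentraxin of the intestinal mucosa, went from 3.26 and 3.34 to 9.05 and 9.17. The rule itself sets the groups apart, and because the starting level is near background the folds are not exact. Of the 6, 4 were also at or under the lower quartile on all 8 collagen arrays of the other groups. The S100g promoter, shown because the gene had the largest rise, holds TTTATNG, a form of the site of the intestinal CDX factors, at -1 from the start. The capitals read TTTATNG on the opposite strand, and as printed they hold TATAAA, the letters of a TATA box. The sequence is RefSeq's, at chrX:162964570-162964769, minus strand, build GRCm38.p6, from 170 bases before to 30 after the start, as for every promoter shown here.
S100g: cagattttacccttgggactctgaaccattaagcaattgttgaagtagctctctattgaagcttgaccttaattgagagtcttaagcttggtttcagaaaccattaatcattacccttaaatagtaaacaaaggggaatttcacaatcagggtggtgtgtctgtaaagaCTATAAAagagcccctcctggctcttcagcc

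Among genes well above background on both surfaces, the largest rises included metal-binding, detoxifying and fat-burning proteins. Mt2, a metallothionein that binds zinc and copper, rose from log2 9.57 and 9.21 to 12.54 and 12.82 (9.76-fold, change 3.29 with SE 0.21, limma adjusted p = 5.27e-07), and its neighbour in function Mt1 from 11.25 and 11.32 to 13.34 and 13.35, a change of 2.06 that was 1.33 over the mean of its probe sets. The glucuronosyltransferase Ugt2b34, which makes compounds soluble for excretion, rose from 9.48 and 9.84 to 12.92 and 12.68, 8.81-fold. The naming rule required that the groups not overlap, and in all these genes the gap was larger than the spread between cultures. Cyp3a13, a drug-metabolising oxygenase, went from 9.08 and 8.98 to 11.93 and 11.62, and the secreted ribonuclease Rnase4 from 9.27 and 8.93 to 11.42 and 11.18. Ceruloplasmin Cp, hemopexin Hpx and Ambp, which carry copper, heme and other ligands in plasma, rose 7.84-fold, 6.88-fold and 5.78-fold, but their collagen cultures were far apart, as in Ambp at 8.65 and 10.04. Without collagen culture 1 the changes of Cp and Ambp were 2.31 and 1.84, and without collagen culture 2 they were 3.64 and 3.23.

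Falls among well-measured genes were led by Gja1, the gap junction protein connexin 43, from log2 11.79 and 11.55 to 9.26 and 9.43 (change -2.32 with SE 0.17, limma adjusted p = 1.45e-06), a change of -1.73 over the mean of its probe sets. The mannose receptor Mrc1 fell from 10.46 and 10.69 to 8.03 and 8.67, thrombomodulin Thbd from 10.04 and 10.42 to 8.32 and 8.53, and the small-GTPase regulator Ripor2 from 10.41 and 10.32 to 8.28 and 8.81. In each, as the naming rule required, both uncoated cultures were below both collagen cultures. Mtm1, a lipid phosphatase, is uncertain, since its highest probe set fell by 2.04 while another rose by 0.64.

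**Figure D2:**
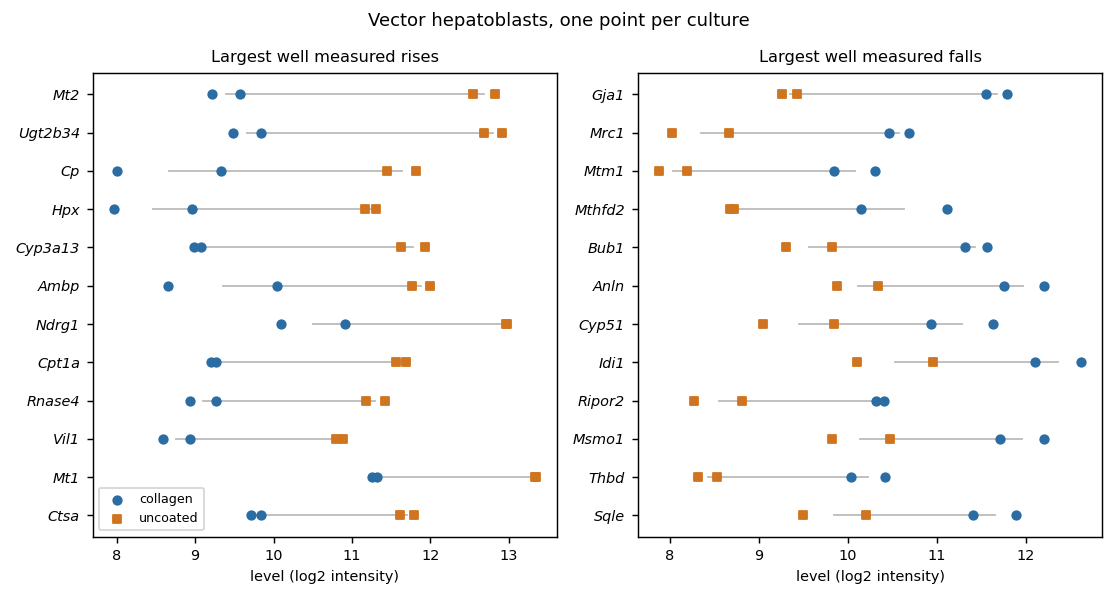
Level of the 12 largest rises (left) and 12 largest falls (right) among genes with both group means at or above log2 8, 1 point per culture (circles collagen, squares uncoated; x axis log2 intensity) and a line between group means. Only called genes whose groups do not overlap could be drawn, so the separation of the groups is set by the choice of genes. The collagen cultures lie farther apart from each other in Cp, Ambp, Mthfd2 and Cyp51 than in Cpt1a or Mt1.

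Genes of the intestinal epithelium were among the most raised. Of 30 measured secretory and mucosal genes 14 were called higher and none lower, 11 of them at least 2-fold, against 15.1% of all genes called higher. With genes under the 30th percentile of level left out, which leaves fewer members to test, the count was 6. Of 28 brush border and enterocyte genes 12 were higher and none lower, 9 of them at least 2-fold. Guca2a, the hormone guanylin, went from log2 5.01 and 5.19 to 8.76 and 8.02, and the membrane mucin Muc13 from 5.53 and 5.55 to 7.91 and 7.69, a change of 2.26 that was 1.51 over the mean of its probe sets. Villin Vil1, which bundles actin in microvilli, rose from 8.59 and 8.93 to 10.88 and 10.80, and Cdx2, a transcription factor that specifies intestine, from 9.71 and 9.47 to 11.32 and 11.32 (change 1.73 with SE 0.20). Both uncoated cultures lay above both collagen cultures in each of these genes. Groups did not overlap in 65% of all genes, and for Vil1 the naming rule required it. The response did not reach all members: 14 of the 30 and 12 of the 28 were near background on both surfaces, and the medians were 0.19 and 0.22, beside -0.02 for all genes. Of other enterocyte genes, the surface protein Tm4sf20 and the microvillus cadherin Cdhr5 rose by 3.49 and 1.41, and the motor Myo7b went from 7.56 and 7.80 to 9.11 and 9.25.

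Fabp2, the intestinal fatty acid-binding protein, is the called brush border gene with the largest change whose printed stretch holds TTTATNG, and went from log2 4.70 and 4.68 to 6.49 and 5.55. Its capitals mark that site, at -65 from the start, at chr3:122894902-122895101, plus strand.
Fabp2: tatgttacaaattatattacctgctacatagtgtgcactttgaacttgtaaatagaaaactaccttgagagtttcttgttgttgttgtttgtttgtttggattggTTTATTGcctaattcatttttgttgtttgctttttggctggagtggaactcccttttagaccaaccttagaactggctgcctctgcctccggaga

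In 25 promoters of brush border genes 32.0% held this string, and in 23 of secretory genes 30.4%, against 10.9% of all 32851 promoters. Within the brush border list it was in 4 of 9 called and in 4 of 13 not called genes, and within the secretory list in 3 of 11 called and in 4 of 10 not called.

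Functions of the mature hepatocyte moved in part. Of 22 measured hepatocyte transcription factors, 8 were called higher and none lower, against 15.1% and 14.2% of all genes, with a median of 0.29. Cebpa, a regulator of hepatocyte genes, went from log2 6.34 and 6.12 to 8.84 and 9.07, and Hhex, an early liver factor, from 11.85 and 12.16 to 12.80 and 12.91. Hnf4a stood at 11.51 and 11.61 on collagen and at 11.74 and 11.68 on uncoated plates, a change of 0.15 that did not pass (limma adjusted p = 0.4). Albumin Alb, the main plasma protein of the adult liver, stood at 4.57 and 4.65 and at 5.21 and 4.65, near background throughout. The count of transcription factors was 5, not 8, without uncoated culture 1 and also with dim genes left out.

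Secreted proteins of the liver rose in some families and hardly in others. Among 23 measured plasma carriers and protease inhibitors 8 were higher and 1, Afp, was lower, among 24 complement genes 7 were higher and none lower, and among 25 coagulation genes 4 were higher and 3 lower, the count higher being 2 when collagen culture 1, uncoated culture 1 or uncoated culture 2 was left out, and 1 with dim genes left out. The coagulation shares were close to those of all genes, 15.1% called higher and 14.2% lower. Under some alternatives 1 complement gene was called lower. Transthyretin Ttr, which carries thyroid hormone, went from log2 5.95 and 6.21 to 9.31 and 8.96, a change of 3.06 that was 5.09 over the mean of its probe sets. C4bp, a complement inhibitor, went from 7.32 and 7.62 to 9.84 and 9.94. Both uncoated cultures lay clearly above, where 65% of all genes had groups that did not overlap. Fibrinogen Fgb, which forms clots, rose from 4.07 and 4.92 to 7.76 and 7.35. Apolipoprotein Apob, the backbone of liver lipoproteins, went from 12.12 and 11.94 to 12.95 and 13.41, and without uncoated culture 2 its change of 0.92 did not pass (limma adjusted p = 0.0801). Of the 23 carriers 12 were near background on both surfaces. The Cp promoter holds TTGCNNAA, a form of the site of the C/EBP factors, at -70 from the start (chr3:19957079-19957278, plus strand), read on the opposite strand. It is printed because Cp, among the genes considered for printing, is the called carrier gene with the largest change whose stretch holds the string.
Cp: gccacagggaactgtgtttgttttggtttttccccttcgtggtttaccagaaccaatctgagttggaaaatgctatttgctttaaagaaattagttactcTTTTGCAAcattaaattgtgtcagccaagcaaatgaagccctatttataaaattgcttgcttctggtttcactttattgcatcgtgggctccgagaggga

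That string was in 33.3% of 24 carrier promoters, against 10.8% of all, and in 4 of 7 called higher against 3 of 11 not called genes with a promoter entry. Among acute-phase genes it was in 2 of 7 called higher and in 7 of 16 not called.

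Of 36 measured conjugating enzymes, which add sugars, sulfate or glutathione to compounds, 14 were called higher and none lower. Among all genes 15.1% were called higher and 14.2% lower. Of these 14 enzymes 9 rose at least 2-fold, and with dim genes left out the count called higher was 8. Of 41 cytochrome P450 enzymes 11 were higher and none lower, 7 at least 2-fold, but 26 of the 41 were near background on both surfaces, and the count was 7 without uncoated culture 1 and 6 with dim genes left out. Sult1d1 went from log2 3.66 and 4.01 to 8.86 and 8.74, a change of 4.97 that was 4.18 over the mean of its probe sets. Ugt2b5 went from 3.20 and 3.43 to 7.25 and 6.65, and the fatty acid hydroxylase Cyp4f14 from 3.90 and 4.09 to 7.30 and 6.94. All began near background. Hal, the histidine-degrading enzyme of liver and skin, went from 4.04 and 4.06 to 7.36 and 7.04, and Glul, which makes glutamine and marks the hepatocytes around the central vein, from 10.92 and 10.67 to 12.53 and 12.13.

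Lysosomal genes had the highest share called higher among the 57 lists, where 15.1% of all genes were called higher and 14.2% lower. Lysosomes are the acid compartment in which hydrolases break down proteins, lipids and sugars, and autophagy delivers cell contents to them. Of 54 measured lysosomal genes 45 were called higher and 1 lower, with a median of 0.67, and of 23 autophagy genes 16 were higher and none lower, with a median of 0.49. Without collagen culture 1 the counts were 34 and 10, and without uncoated culture 1 they were 35 and 10. Cathepsin A, Ctsa, went from log2 9.71 and 9.84 to 11.79 and 11.61, and the cysteine protease Lgmn from 7.68 and 8.14 to 10.07 and 9.90. Both uncoated cultures were above both collagen cultures. Groups did not overlap in 65% of all genes, and for Ctsa the naming rule required it. Hexa, which degrades gangliosides, and Lipa, the acid lipase, rose by 2.07 (SE 0.24) and 1.43 (SE 0.15). The exception was Gm2a, named here after its value was seen, a ganglioside activator that fell from 10.43 and 10.39 to 9.77 and 9.66. Among autophagy genes the receptor Sqstm1 rose by 1.55 and Atg14, a subunit of the lipid kinase complex that starts autophagosomes, by 1.30.

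The Lgmn promoter holds TCACGTG, a form of the site that TFEB and its relatives bind at lysosomal genes, at -50 from a start, at chr12:102439063-102439262, minus strand. It is shown as the called lysosomal gene with the largest change whose stretch holds the string.
Lgmn: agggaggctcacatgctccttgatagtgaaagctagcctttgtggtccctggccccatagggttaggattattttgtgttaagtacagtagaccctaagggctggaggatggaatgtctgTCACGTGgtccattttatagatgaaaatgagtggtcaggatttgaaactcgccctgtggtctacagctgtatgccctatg

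In 54 promoters of lysosomal genes 27.8% held it, against 3.77% of all promoters. It was in 14 of 38 genes called higher, in 1 of 7 not called, and among autophagy genes in 2 of 12 called and 1 of 5 not called. Tfeb itself, named after its value was seen, went from log2 7.38 and 7.45 to 7.81 and 7.90, a change of 0.44 that did not pass without collagen culture 1 (limma adjusted p = 0.0898) or without uncoated culture 2 (0.08).

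Genes of fat oxidation rose too. Of 32 measured genes of fatty acid oxidation, ketone formation and peroxisomes 23 were called higher and none lower, with a median of 0.50. Cpt1a, which lets fatty acids into mitochondria, went from log2 9.20 and 9.26 to 11.69 and 11.56 (5.26-fold, change 2.40 with SE 0.10, limma adjusted p = 1.86e-08). The coactivator Ppargc1a went from 5.70 and 5.61 to 8.02 and 7.72 and the thioesterase Acot1 from 5.95 and 7.28 to 9.48 and 9.16. The Acot1 change was 2.03 without collagen culture 1 and 3.37 without collagen culture 2. The groups did not overlap in any of these, nor in 65% of all genes, and for Cpt1a the naming rule required it. Respiratory chain subunits differed from that pattern in their counts, with 7 of 53 higher, none lower and a median of 0.08, a share close to the 15.1% of all genes, and across the alternatives the counts were 1 to 17 higher and 0 to 4 lower. Without collagen culture 1 the count higher was 2, without collagen culture 2 it was 3, and without uncoated culture 1 it was 1.

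Genes of cell division fell almost without exception, while 14.2% of all genes were called lower and 15.1% higher. Of 44 measured mitotic genes all 44 were called lower, 40 at least 2-fold, with a median of -1.44, and 42 to 43 were called lower when any 1 vector array was left out. Of 35 replication genes 33 were lower and none higher, with a median of -0.91. Bub1, a checkpoint kinase of the spindle, went from log2 11.56 and 11.31 to 9.31 and 9.82 (change -1.87 with SE 0.17), with a change of -1.24 over the mean of its probe sets. Anln, a scaffold of the cleavage furrow, went from 12.20 and 11.75 to 9.88 and 10.34, and Aurkb, a kinase of chromosome segregation, from 10.38 and 10.13 to 8.40 and 8.55. The groups were separate in all of them, as in 65% of all genes, and for Bub1 and Anln the naming rule required it. Orc1 and Gins1, which license and start replication forks, changed by -1.66 (SE 0.24) and -1.64 (SE 0.16). Mki67, the usual proliferation marker, fell from 12.38 and 11.78 to 10.29 and 10.80, and the cyclin Ccnd1 from 13.49 and 13.47 to 12.41 and 12.59.

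The promoters compared here are those of Anln and Bub1. Anln is the mitotic gene with the largest change whose stretch holds TTTGAA, the core of the cell cycle homology region (CHR) of late cell cycle genes. Bub1 is the mitotic gene with the largest fall, and its printed stretch does not hold TTTGAA. The Anln site (capitals) lies 21 bases after the start and reads TTTGAA on the opposite strand.
Anln (chr9:22389177-22389376, minus strand): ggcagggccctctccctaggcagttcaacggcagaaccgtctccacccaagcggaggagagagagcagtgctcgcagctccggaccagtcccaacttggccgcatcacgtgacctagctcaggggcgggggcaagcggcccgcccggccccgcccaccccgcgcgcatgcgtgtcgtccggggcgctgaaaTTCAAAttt
Bub1 (chr2:127831830-127832029, minus strand): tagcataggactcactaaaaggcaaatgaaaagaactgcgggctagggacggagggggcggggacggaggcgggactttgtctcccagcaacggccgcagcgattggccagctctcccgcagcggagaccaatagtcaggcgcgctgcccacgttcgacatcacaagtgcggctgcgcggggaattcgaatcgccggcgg

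In 40 mitotic promoters 75% held TTTGAA, against 17.9% of all promoters, while 11.8% of 34 replication promoters did. TTCCCGC, a form of the E2F site, was in 38.2% of replication promoters and 5% of mitotic ones, against 4.6% of all. Cdc6, which loads the replicative helicase, fell from log2 9.10 and 8.15 to 6.85 and 7.39, and its promoter at chr11:98907981-98908180, plus strand holds the E2F string at -138 from the start, on the opposite strand. It is shown as the called replication gene with the largest change whose stretch holds the string.
Cdc6: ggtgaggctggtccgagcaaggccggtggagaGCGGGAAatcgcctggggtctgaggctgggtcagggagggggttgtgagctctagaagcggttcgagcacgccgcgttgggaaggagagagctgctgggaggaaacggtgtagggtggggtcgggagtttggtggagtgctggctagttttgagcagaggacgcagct

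Genes that supply growth fell too, where 14.2% of all genes were called lower and 15.1% higher. Of 23 nucleotide synthesis genes 19 were called lower and none higher, and of 40 ribosome biogenesis genes 33 were lower and none higher, with medians of -0.72 and -0.51. These counts rested partly on collagen culture 1: without it they were 12 and 14. Thymidine kinase Tk1 fell from log2 10.79 and 10.26 to 8.87 and 9.09, and Rrp12, a ribosome assembly factor, from 8.90 and 8.55 to 7.76 and 7.56. Of 28 ribosomal proteins themselves, 3 were lower and none higher, with a median of -0.03, and without collagen culture 1 or uncoated culture 1 none was called. The share of ribosomal proteins called lower was below that of all genes. Of 39 nucleoporins and nuclear transport factors 28 were lower and none higher, such as Nup210, a pore membrane protein, with a change of -1.23. Of 19 histone and chromatin assembly genes 13 were lower and 1 higher.

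Genes of cholesterol synthesis and amino acid supply fell, and the collagen cultures differed in both. Among all genes 14.2% were called lower and 15.1% higher. Of 20 cholesterol synthesis genes 17 were called lower, 14 at least 2-fold, with a median of -1.35, and of 22 ATF4 response genes, which make and import amino acids under stress, 8 were lower and 1 higher. Over members above background, the mean level of the cholesterol genes was 10.44 and 10.93 on collagen and 9.26 and 9.64 on uncoated plates, and for the ATF4 list 9.69 and 10.83 and then 9.53 and 9.55. Thus the ATF4 list was close to the uncoated level in collagen culture 1 and more than log2 1 higher in culture 2. Culture 2 was the higher one in both lists in all 5 collagen groups of the series. Without collagen culture 2 the counts of lower genes were 11 and 5, and without uncoated culture 1 they were 8 and 5. Sqle, which oxidises squalene, went from 11.41 and 11.89 to 9.50 and 10.20. Asns, which makes asparagine, went from 11.86 and 12.78 to 10.64 and 10.61, and Cth, which makes cysteine, from 8.58 and 10.56 to 6.75 and 7.23. The groups did not overlap in these 3 genes, as in 65% of all genes, and for Sqle and Cth the naming rule required it. Without collagen culture 2 the change of Cth was -1.59 (limma adjusted p = 0.139), without uncoated culture 1 it was -2.35 (0.0929), and without collagen culture 1 it was -3.57. The part that culture 2 has in the fall of both lists was not tested. TGATGNAA, a form of the site ATF4 binds, was in 30.4% of 23 ATF4 list promoters against 3.97% of all, and in 1 of 7 called lower and in 6 of 12 not called genes. Among tRNA synthetases and amino acid transporters it was in 2 of 5 called lower and 5 of 9 not called.

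**Figure D3:**
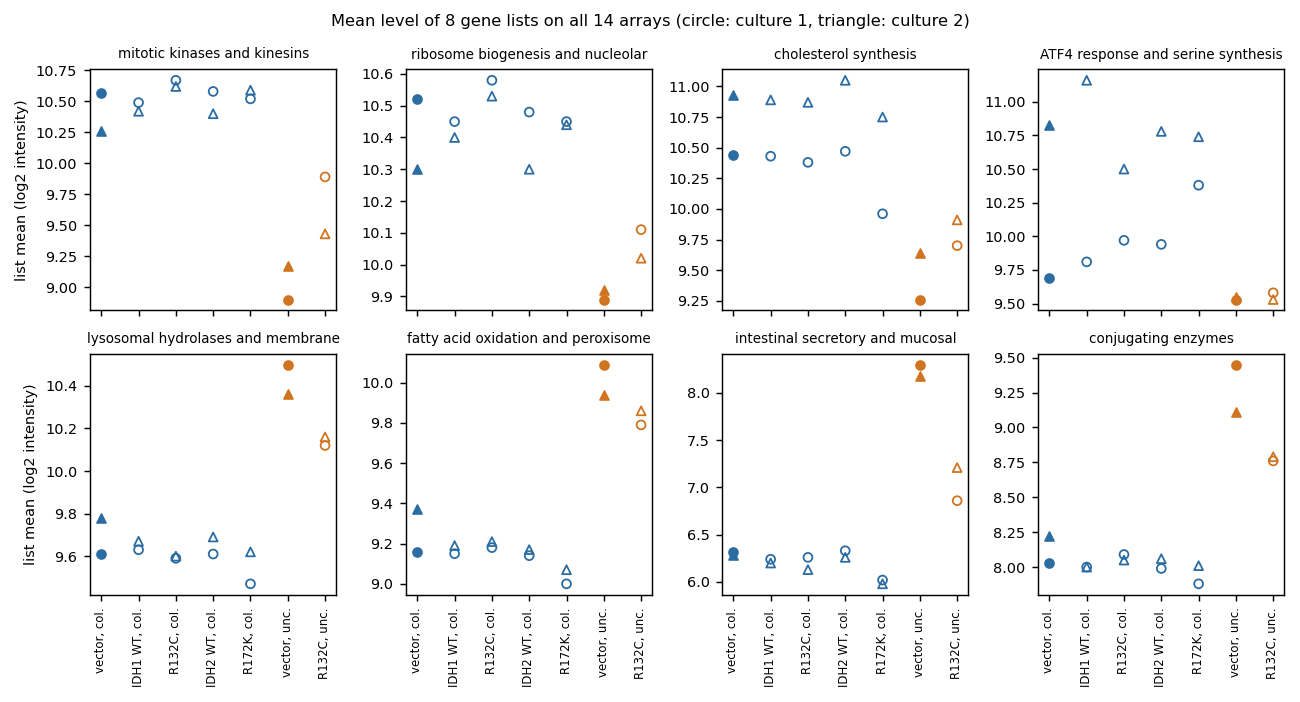
Mean level (y axis, log2 intensity) of the members above background of 8 gene lists on all 14 arrays, by group (x axis; col. collagen, unc. uncoated; filled vector, open other cells; circles culture 1, triangles culture 2). Both vector uncoated arrays lie outside the range of all 10 collagen arrays in each list. The gap is least in the ATF4 list, where vector collagen culture 1 at 9.69 is near the uncoated cultures at 9.53 and 9.55. A member was used if its mean was above background in at least 1 vector group. Genes dim on collagen could thus enter through their uncoated level alone, which in part sets the gap in the rising lists. Of 30 intestinal secretory genes 16 were used.

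Outputs of growth factor signalling fell in part. Of 23 outputs of the ERK kinases and EGF receptor ligands 12 were called lower and 3 higher, with a median of -0.46, and without collagen culture 1 the count lower was 7. Phlda1 and the sprouty inhibitor Spry2, both induced by ERK, fell, with changes of -1.24 and -0.92. Erbb3, a receptor for neuregulins, rose from log2 6.99 and 6.69 to 9.95 and 9.95, a change of 3.11 that was 1.57 over the mean of its probe sets. Of 23 immediate early genes 10 were lower and 4 higher. The higher shares of both lists were near the 15.1% of all genes, of which 14.2% were called lower. Fos, a partner in the AP-1 factor, fell from 10.52 and 10.25 to 8.11 and 7.17, and cyclooxygenase Ptgs2 from 12.77 and 12.37 to 11.33 and 10.90. Of 19 YAP and TEAD genes, which read cell stretch and density, 9 were lower and none higher, 5 without uncoated culture 2. Birc5, one of these 9, is also a mitotic gene.

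Other pathways moved in single members. Notch1 rose from log2 9.12 and 9.03 to 10.53 and 10.55, while its ligand Jag1 and its nuclear partner Rbpj fell, with changes of -0.63 and -0.86. Bmp4, a ligand of the BMP branch, rose by 1.37 and Inhba, an activin subunit, fell by 1.33. Wnt7a fell from 8.43 and 7.78 to 5.47 and 5.35, and Wnt4 rose by 1.31. Igfbp3, which holds IGF in a complex, fell from 10.48 and 10.15 to 8.62 and 8.85, and the receptor Igf2r, which clears IGF-II, rose by 1.12. The Notch, Wnt, BMP and IGF lists had 3, 4, 6 and 5 members called higher and 3, 2, 2 and 2 lower, shares near or below those of all genes. Without uncoated culture 1 the counts higher were 1, 1, 3 and 3, and without collagen culture 1 they were 1, 2, 3 and 3. The Wnt count lower was 1 to 5 across the alternatives.

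Genes of contact with the matrix and between cells moved both ways. Of 23 integrins and matrix receptors 6 were called higher and 5 lower, where 15.1% of all genes were called higher and 14.2% lower. Itga2, the collagen receptor subunit, fell from log2 7.89 and 7.87 to 6.63 and 6.41 (change -1.36 with SE 0.11), and the laminin receptor subunit Itga3 from 10.25 and 10.07 to 9.04 and 9.29. Its relative Itga6 fell with a change of -0.80, while Itgb5, a vitronectin receptor subunit, rose by 1.05. Among 41 matrix genes 9 were lower and 5 higher, with 3 higher without collagen culture 1 or uncoated culture 2 and 8 without collagen culture 2. Htra1, a secreted serine protease, fell from 10.54 and 10.31 to 6.78 and 6.14, and Adamts1, a metalloprotease, rose from 5.88 and 6.42 to 9.58 and 9.12. Of 24 tight junction and polarity genes 9 were higher and 3 lower. The lower share here and the higher share of matrix genes were near those of all genes. Occludin Ocln rose from 6.06 and 5.95 to 8.92 and 8.96, its relative Marveld2 by 1.48, and the polarity protein Crb3 by 1.20. Keratins Krt7 and Krt19, which mark ducts, went from 13.46 and 12.95 to 12.46 and 12.27 and from 13.89 and 13.88 to 13.71 and 13.51, and the Krt19 call is not firm. Its limma adjusted p was 0.105 without collagen culture 1, 0.0688 without collagen culture 2, 0.206 without uncoated culture 2, 0.125 with cyclic loess and 0.0643 with no intensity trend. The duct marker Sox9 rose from 7.04 and 7.67 to 9.22 and 9.54, and the biliary list had 7 of 20 higher and 2 lower, or 4 higher with dim genes left out.

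Immune-type genes rose in part. Of 36 interferon and antigen presentation genes 14 were called higher and 2 lower. Of 30 acute-phase genes 9 were higher and none lower, or 5 higher with dim genes left out. Among all genes 15.1% were called higher and 14.2% lower. Gbp2, an interferon-induced GTPase, went from log2 4.47 and 5.18 to 7.79 and 7.16. Lbp, which presents lipopolysaccharide, went from 6.78 and 8.38 to 11.62 and 11.68, and its change was 3.27 without collagen culture 1 and 4.87 without collagen culture 2. The summed intensity of 22 blood and immune markers was 659 to 711 on collagen and 684 to 739 on uncoated plates, with 15 of the 22 near background in both. Of these markers 1 was called, Ptprc, from 4.07 and 4.87 to 6.45 and 5.95, and across the alternatives 0 to 2 were called higher. Of 18 endothelial markers none was called, 1 over the mean of probe sets, and their sum was 654 to 680 and 636 to 683. Of 25 mesenchymal markers 1 was called higher and 3 lower, counts that were 0 or 1 and 0 to 6 across the alternatives, with sums of 21377 to 21639 and 16636 to 18586, and Vim was at 13.77 or above on all 4 arrays. Pancreatic and gastric markers summed to 898 to 942 and 952 to 972, and neural and muscle markers to 7170 to 7977 and 3006 to 4695, with Tnnt2, a troponin, at 12.42 and 12.65 and then 10.33 and 11.53. The Tnnt2 change was -1.01 without uncoated culture 1 and -2.21 without uncoated culture 2. The part of other cells in the rises was not tested beyond these levels.

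**Figure D4:**
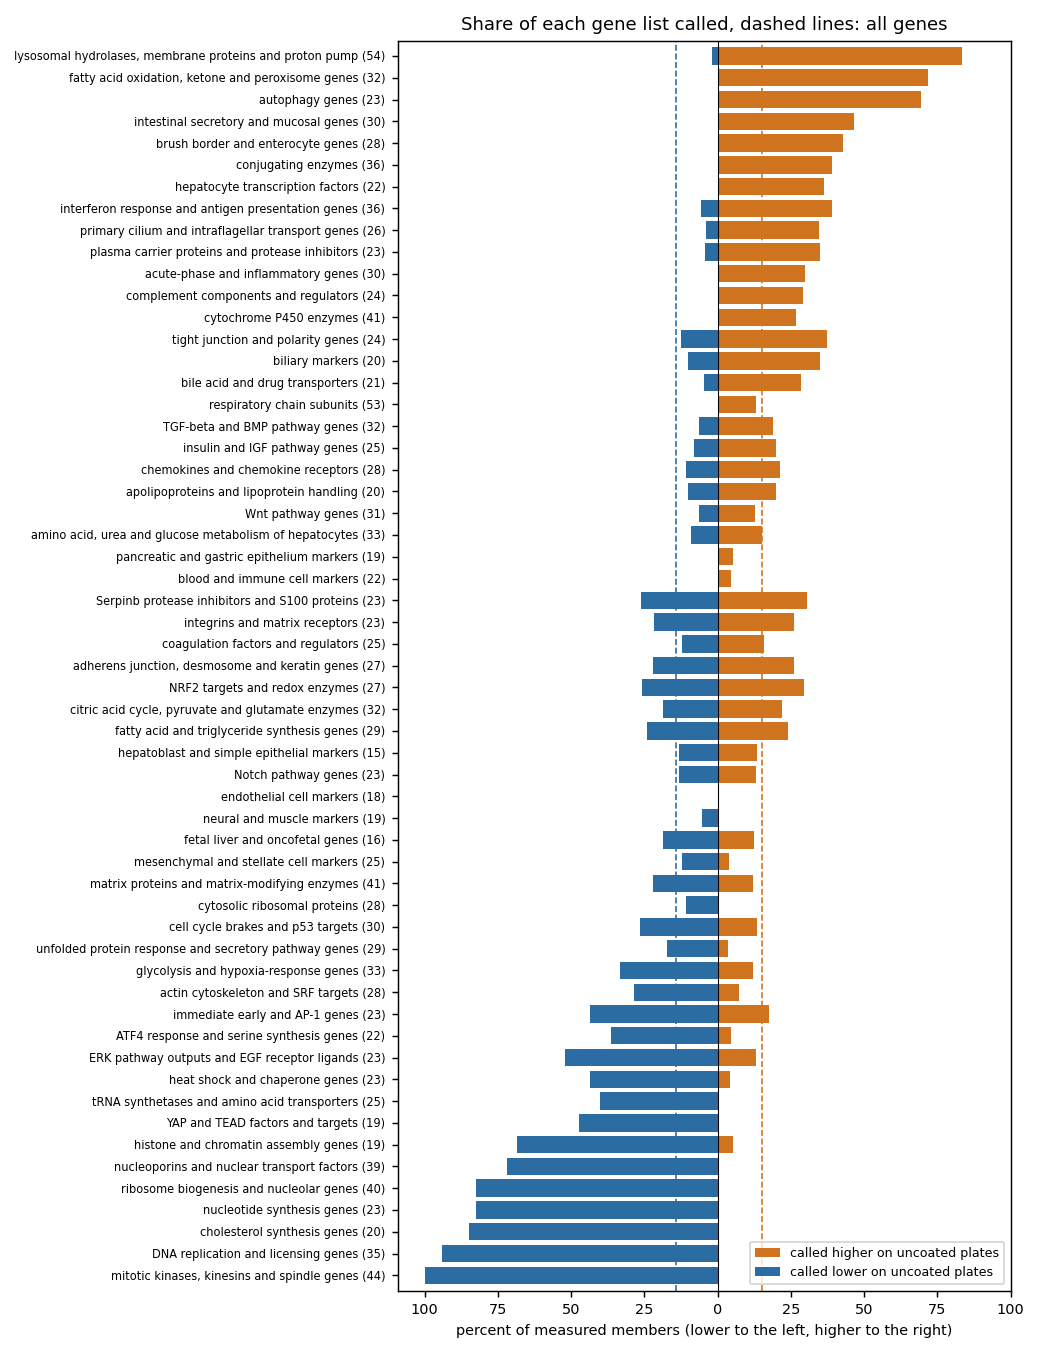
Share of the measured members of each of 57 gene lists (number in parentheses) called higher (to the right) or lower (to the left) on uncoated plates in vector cells (x axis, percent). Dashed lines mark the shares of all genes, 15.1% and 14.2%. The mitotic list reaches the left edge with all 44 members, and the lysosomal list extends farthest right with 45 of 54.

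Searches of the promoter windows used 18 letter strings on both strands, and those shown were chosen after their matches were seen. Genes on chromosome 18 were not considered for printing, so each printed gene is the largest change only among the others. TCACGTGA, which contains TCACGTG, was in 0.974% of all promoters and 13% of lysosomal ones. CCAAT was in 37.4% of all, 77.5% of mitotic and 75% of cholesterol promoters, in 14 of 14 called lower and 1 of 2 not called cholesterol genes, while the sterol strings TCACNCCAC and CACCCCAC were each in 1 of 20 cholesterol promoters. TTTGGCGC was in 0.514% of all and 17.6% of replication promoters. The HNF4 string CAAAGTCCA, its part CAAAGT, and the HNF1 palindrome were in 0.475%, 14.4% and 0.00913% of all, and CAAAGT was in none of 10 called P450 genes with an entry but in 12 of 23 not called, and in 3 of 7 carrier genes called higher and 6 of 11 not called. TTTATTG, a case of TTTATNG, was in 4.6% of all and 4% of brush border promoters and in none of 23 secretory ones. The Fabp2 site shown is this case, which was no more frequent in either list than in all promoters. The PPAR direct repeat was in 0.0396% of all and in none of 35 promoters of the fat oxidation list, the NRF1 palindrome in 0.971% of all and in 3 of 48 of the respiratory chain, none of them of a called gene, and TGCACNC was in 12.6% of all promoters. A match is a run of letters, and whether any factor binds there was not measured.

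Cells with IDH1 R132C offered the only other response to the same change of plate. By limma on the difference between both responses, 31 genes (0.25%) were called, 11 with dim genes left out, 55 with array weights and 54 with the replicate number as a block. In all 31 the vector cells rose and the R132C change was smaller. At an unadjusted p under 0.05 there were 694. The number called was 20 without vector collagen culture 2, 79 without vector uncoated culture 2, and 19 and 20 without R132C collagen culture 1 and 2. Mptx1 rose by 5.81 (SE 0.15) in vector cells and by 0.60 (SE 0.15) in R132C cells, a difference of -5.21 (SE 0.22), and Folr1, a folate receptor, by 5.22 and 1.26. Of the 6 genes that switched on, 5 had a called difference, and all 6 were called higher in R132C cells as well. These 6 were chosen by their rise on the same vector arrays, and that choice favours a smaller R132C rise. Of 30 intestinal secretory genes 6 differed, of 36 conjugating enzymes 3, and of 44 mitotic genes none, with mitotic medians of -1.44 and -1.01. Lysosomal medians were 0.67 and 0.53, and no member differed. For genes outside the 31, missing the threshold does not show that both kinds of cell responded alike.

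**Figure D5:**
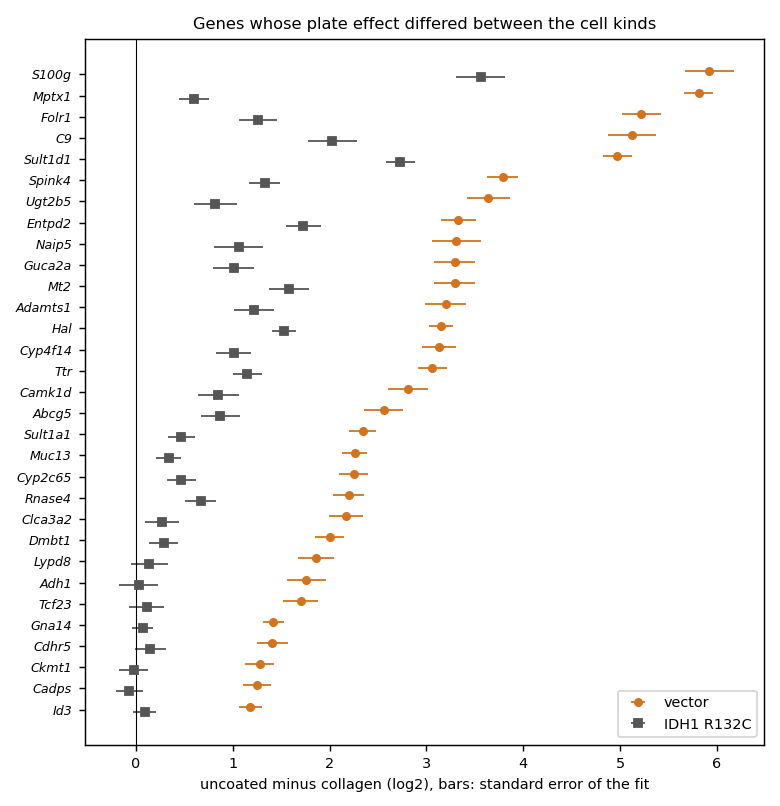
Change on uncoated plates (x axis, log2, uncoated minus collagen, bars standard error of the fit) in vector cells (circles) and IDH1 R132C cells (squares) for the 31 genes whose change differed between them. The vector value lies to the right of the R132C value for every gene shown.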

How the data were processed

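RNA from 14 cultures was hybridised to Affymetrix Mouse 430Av2 arrays. The deposited intensity values, summarised by RMA per the submitters' processing notes with no version given, are linear, between 5.84 and 26770; log2 was taken here. Of 22690 probe sets, 20380 named 1 gene; 2246 that named several genes or none were not used. For each of 12393 genes the probe set with the highest mean over the 14 arrays was kept. limma 3.58.1 in R 4.3.3 fitted the 7 group means (lmFit, eBayes with an intensity trend, 7 residual degrees of freedom), with Benjamini-Hochberg adjustment over all genes and a threshold of 0.05. The fit was also run on simulated data with independent noise. Such data lack the shared deviations of same-numbered cultures, so they give no rate of false calls for these arrays. Genes were named by rule: the 12 largest changes each way, the same among genes at log2 8 or more in both groups, genes switched on or off, up to 5 called members of each of 57 lists, marker lists and a fixed set, of which 2 are not reported here. Others are named as chosen after their values were seen, or by the promoter rule. The comparison, lists and letter strings were chosen with earlier results of these data known, and the strings were first searched over all 57 lists. Promoters (32851 windows, 250 bases before to 50 after the start) are RefSeq's, build GRCm38.p6; 9887 measured genes had one. Alternatives covered probe set choice, a filter on dim genes, normalization, variance model, arrays fitted, array weights, a replicate block and each array left out. Replicate numbers were not treated as pairs: no label says what they share, and they did not pair the compared groups.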

Additional observations from a re-analysis of the deposited data

Results flagged for a closer look

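Some genes named for vector cells changed differently in IDH1 R132C cells on the same change of plate, by limma's test of the difference itself with an adjusted p under 0.05. Each value is the R132C change minus the vector change on the log2 scale, and all were below 0. Many of these genes were named by their rise on the same vector arrays, which by itself favours values below 0. Intestinal genes differed, Mptx1 by -5.21, S100g by -2.36, Spink4 by -2.45, Guca2a by -2.28, Muc13 by -1.92 and Cdhr5 by -1.26. Liver proteins and enzymes differed too, C9 by -3.10, Ttr by -1.91, Ugt2b5 by -2.82, Sult1d1 by -2.24, Cyp4f14 by -2.12 and Hal by -1.62. The others were Folr1 by -3.96, Adamts1 by -1.98, Mt2 by -1.71 and Rnase4 by -1.53. Both kinds of cell had 2 cultures on each surface.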

How the results depend on the processing

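Testing every probe set by itself gave 5478 called, 2732 lower and 535 at least 2-fold lower, over 20380 probe sets in place of 12393 genes. The difference between vector and R132C responses gave 11 genes among those above the 30th percentile of level, 55 with array weights and 54 with the replicate number as a block. The replicate block gave 3978 called in vector cells, 2039 higher and 1939 lower. Same-numbered cultures deviated together among the collagen groups (correlation 0.11 to 0.49) and between the uncoated groups (0.26), but hardly between vector collagen and uncoated cultures (-0.02) or R132C ones (0). With each array left out in turn, the genes called in vector cells numbered 2293 to 3169, those higher 1160 to 1658 and those lower 1108 to 1511; the difference gave 19 to 79. Centring arrays on their median gave 1719 higher and 1951 lower. The cause of these shifts was not tested. Among named genes that were called, 95 kept direction and call under every alternative run that gave them a value; the exceptions were Krt19, Cdh1, Tfeb, Cth, Cyp51 and Apob. Among named genes not called, the change of Krt18 was 0.03 with cyclic loess, that of Idh1 -0.02 to 0.27 and that of Prox1 -0.05 to 0.24 with an array left out. The 2 cultures per group limit the precision.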
